A study of Mus musculus with 10 samples.

Results

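Connexins and pannexins, the membrane proteins that couple the cytoplasm of neighbouring cells or open it to the outside, were examined in 3 populations of freshly isolated mouse endothelial cells. The genes were taken by symbol from the table of exon counts: 5 connexins (Gja1, Gja4, Gja5, Gjb2 and Gjc1) and 1 pannexin (Panx1). They are 6 of the 23 connexin and pannexin symbols in the table and of its 23284 symbols in all. RNA was sequenced from 4 libraries of lymph node lymphatic endothelial cells (LN-LEC), 3 of lymph node blood endothelial cells (LN-BEC) and 3 of diaphragm lymphatic endothelial cells (D-LEC). All mice were wild-type C57BL/6 (B6), aged 6 to 8 weeks and untreated, and each library came from cells of several pooled mice. The LN populations came from inguinal, axillary, brachial, cervical and mesenteric nodes that were combined. Cells without CD45 and with CD31 were sorted as LEC when they carried PDPN and as BEC when they did not, so that the level of Pdpn is not independent of the gate. The diaphragm stands for a peripheral tissue lymphatic bed, and the nodes combine sites that cannot be separated here.

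Connexins assemble in the membrane as hexameric hemichannels, and the hemichannels of adjacent cells dock into gap junctions that pass ions and small metabolites. Pannexins form large single-membrane channels that release ATP, and they are not thought to dock into gap junctions as connexins do. In blood endothelium Gja4 and Gja5 encode connexins known from arteries, where they take part in spreading dilation along the vessel. In lymphatic endothelium Gja1 and Gja4 are known from collecting vessels and their valves, and mutations of GJA1 are associated with lymphedema in people.

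The libraries held 22429940 to 48906070 counted fragments, LN-LEC replicate 4 being the deepest, and 3 fragments correspond to 0.0613 to 0.134 CPM (the count scaled to the library total). Levels are normalized counts, that is, deposited counts scaled by the size factors of DESeq2, and errors are SDs over libraries. Differences are log2 fold changes with their SE from edgeR's quasi-likelihood test, adjusted by the Benjamini-Hochberg method over 15319 genes, and a gene was called at an adjusted p under 0.05. The labels give no batch or sorting day, so such a factor was not in the fit and may be mixed with the populations. P-values measure the spread between libraries of pooled mice. Lymphatic markers (Prox1, Lyve1, Pdpn, Reln and Flt4) summed to 94668 to 119450 normalized counts in LN-LEC, 387239 to 415551 in D-LEC and 2891 to 7955 in LN-BEC. Blood markers (Nrp1, Flt1, Vwf and Notch4) summed to 69497 to 72713 in LN-BEC, 818 to 1374 in LN-LEC and 450 to 633 in D-LEC. Both lists therefore separated the populations by their labels. LN-BEC replicate 3 and LN-LEC replicate 4 stood apart from their groups in several of the genes below, and results that rest on them are given with and without them. In a bulk library a lower level can be fewer cells with the transcript or less transcript per cell, and these cannot be told apart.

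The promoters of 3 members are shown because each was highest in a different population, Gja1 in D-LEC, Gja5 in LN-BEC and Gjb2 in LN-LEC. Each run is the 250 bases before the RefSeq start (table of GRCm38.p6), written 5' to 3' on the strand of the gene, and each matched 1 place in mm9, at chr10:56096856-56097105 (plus strand) for Gja1, chr3:96836075-96836324 (plus strand) for Gja5 and chr14:57723540-57723789 (minus strand) for Gjb2. Capitals mark letter matches on either strand to motifs named after NFAT, SP or GATA factors.
Gja1: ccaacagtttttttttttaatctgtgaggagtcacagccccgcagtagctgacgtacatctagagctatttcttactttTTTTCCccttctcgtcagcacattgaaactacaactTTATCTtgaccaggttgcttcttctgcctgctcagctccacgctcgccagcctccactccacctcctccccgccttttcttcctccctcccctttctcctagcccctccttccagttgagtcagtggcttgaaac
Gja5: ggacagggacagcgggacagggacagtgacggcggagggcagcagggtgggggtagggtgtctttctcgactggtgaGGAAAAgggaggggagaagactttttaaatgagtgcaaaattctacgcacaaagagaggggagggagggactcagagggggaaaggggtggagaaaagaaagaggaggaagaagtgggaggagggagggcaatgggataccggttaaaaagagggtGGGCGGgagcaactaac
Gjb2: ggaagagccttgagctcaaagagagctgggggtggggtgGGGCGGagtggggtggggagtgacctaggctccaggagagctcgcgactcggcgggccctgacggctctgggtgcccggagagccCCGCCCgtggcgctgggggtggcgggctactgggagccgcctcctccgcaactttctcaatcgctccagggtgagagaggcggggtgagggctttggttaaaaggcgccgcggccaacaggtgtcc
The Gja1 run held the NFAT letters GGAAAA on the opposite strand, 171 bases before the start. It also held, on the opposite strand and 135 bases before the start, the letters AGATAA that are named here after GATA factors. Gja5 held GGAAAA 173 bases and GGGCGG (SP) 17 bases before it, and Gjb2 held GGGCGG at 211 bases and, on the opposite strand, at 126 bases. Among 32851 promoters of 300 bases, 23.4% held GGAAAA, 35.7% GGGCGG and 11.2% AGATAA on either strand, and these motifs do not overlap here. None of the 5 members' windows that the table holds had the SOX letters AACAAT, which 10.7% of all promoters had. The same was true of the FOX letters TGTTTAC, with 3.65% of all promoters. It was also true of the box read as TATAAA, with 13.6%. These are matches of letters and not measured binding sites. The counted Gja1 and Gjb2 models start 0 bases from the RefSeq start and the Gja5 model 14 bases from it.

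Of 18 tests, 6 genes in 3 comparisons, 15 were called. In each comparison 5 of the 6 members differed, where the share of all tested genes called was 45.8% for LN-LEC against D-LEC, 38.2% for LN-LEC against LN-BEC and 48.1% for D-LEC against LN-BEC. By direction, 3 members were higher in LN-LEC (24.1% of all genes) and 2 in D-LEC (21.7%) in the first comparison. In the second, 2 were higher in LN-LEC (19.8%) and 3 in LN-BEC (18.4%), and in the third 2 were higher in D-LEC (22.4%) and 3 in LN-BEC (25.6%). The libraries of the populations did not overlap in 14 of the 18 tests, beside 50% (LN-LEC against D-LEC), 44.9% (LN-LEC against LN-BEC) and 56.1% (D-LEC against LN-BEC) of all tested genes. Of the members, 3, 1 and 3 differed by at least 5-fold in these comparisons, and 12.2%, 9.84% and 15.2% of all genes did. Without LN-BEC replicate 3 all 6 members were called for LN-LEC against LN-BEC, Gjb2 being the added one, and the number called stayed at 5 in the other comparisons. The members that differed by at least 5-fold were then 3, 2 and 2, because Gjb2 passed this size for LN-LEC against LN-BEC and no longer for D-LEC against LN-BEC. The 3 comparisons share libraries and are not independent. The members did not move as a block. Gja1 and Gjc1 were lowest in LN-LEC, Gja5 was almost confined to LN-BEC, and Gjb2 and Panx1 were lowest in D-LEC, while Gja4 varied least.

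**Figure D1:**
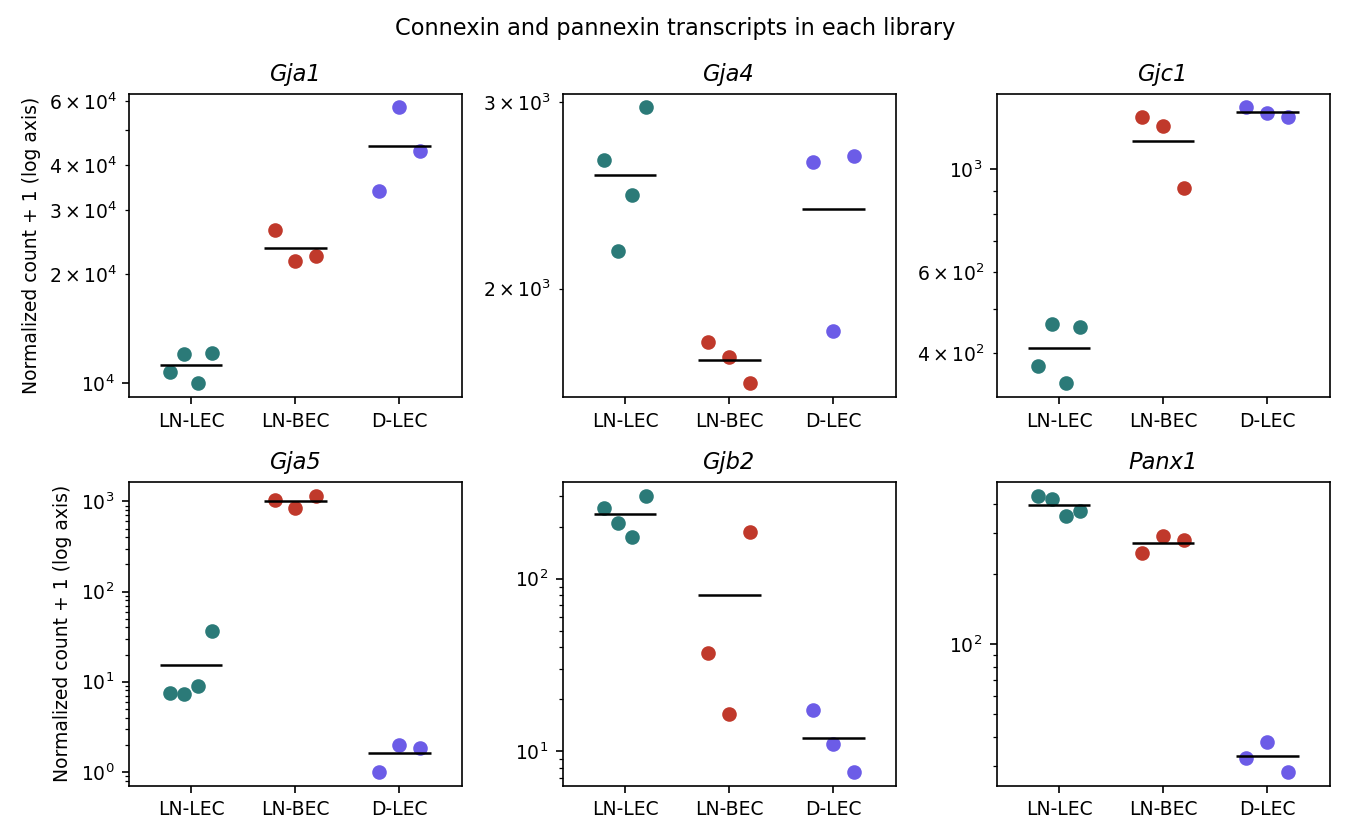
Normalized counts plus 1 on a log axis for the 6 members, with 1 point per library and a bar at the mean of each population (LN-LEC n = 4, LN-BEC n = 3, D-LEC n = 3). Gja5 lies between 850 and 1154 in LN-BEC and at or below 35.8 elsewhere, and Gjb2 in LN-BEC replicate 3 (186) lies inside the LN-LEC range of 174 to 301.

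Gja1 encodes Cx43, the most widely expressed connexin, which also couples fibroblasts, smooth muscle and mesothelium. The gene lies on chromosome 10 (56097106 to 56110225, plus strand, mm9) with 2 exons, and the counts cover all of its exons. LN-LEC libraries had 10699, 12000.5, 9984 and 12147 normalized counts. LN-BEC libraries had 26469, 21812 and 22510.5, and D-LEC libraries had 33865, 57823 and 43919. Every D-LEC library was above every LN-BEC library, and every LN-BEC library above every LN-LEC library. The mean was 11208 ± 1043 for LN-LEC (SD, n = 4), 23597 ± 2511 for LN-BEC (SD, n = 3) and 45203 ± 12031 for D-LEC (SD, n = 3). By edgeR, Gja1 in D-LEC exceeded that in LN-LEC 3.98-fold (log2 -1.99, SE 0.16, LN-LEC minus D-LEC, adjusted p = 2.97e-07). LN-BEC exceeded LN-LEC 2.08-fold (log2 -1.06, SE 0.16, adjusted p = 1.05e-04 by edgeR). D-LEC were 1.91-fold above LN-BEC (log2 0.93, SE 0.17, adjusted p = 4.80e-04 by edgeR), so that all 3 neighbours in this order differed.

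Markers of cells other than endothelium were summed, among them mesothelium and fibroblasts, in which Gja1 is also used. Mural markers, which cover smooth muscle, are given with Gjc1 below, and their sum was lowest in D-LEC. Mesothelial markers (Msln, Upk3b, Krt19, Wt1 and Lrrn4) summed to 587 to 1817 in D-LEC and 22.5 to 131 in the LN populations, and skeletal muscle markers (Acta1, Ckm, Myh1, Mb and Tnnt3) to 906 to 1277 in D-LEC and 1.27 to 16.6 in the others. None of these markers was at 0 in a whole population. Fibroblast markers (Pdgfra, Dcn, Lum, Col1a1 and Col1a2) overlapped, with 2474 to 7432 in D-LEC, 3994 to 7237 in LN-LEC and 2037 to 7575 in LN-BEC. D-LEC replicate 2, which had the highest Gja1, had the lowest mesothelial (587) and fibroblast (2474) sums of the D-LEC libraries. Mesothelial and skeletal muscle markers thus moved with Gja1 between D-LEC and the LN populations. Among D-LEC libraries the mesothelial sums did not. The skeletal muscle sums (906, 1143 and 1277 for replicates 1 to 3) were highest in replicate 3, which was not the library highest in Gja1. Their part in the difference was not tested.

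Gjc1 encodes Cx45, known from endothelium of the embryo, smooth muscle and the conduction tissue of the heart. It lies on chromosome 11 (102660792 to 102681000, minus strand, mm9) and has 5 exons. LN-LEC libraries had 375, 463, 344 and 455 normalized counts, LN-BEC libraries 1298, 1240.1 and 912, and D-LEC libraries 1361, 1321 and 1298. LN-LEC were below every library of the others, whereas LN-BEC and D-LEC overlapped at their edges. The means were 409 ± 59.2, 1150.0 ± 208 and 1327 ± 31.9. By edgeR, D-LEC exceeded LN-LEC 3.19-fold for Gjc1 (log2 -1.67, SE 0.13, LN-LEC minus D-LEC, adjusted p = 2.15e-07). LN-BEC exceeded LN-LEC 2.78-fold (log2 -1.47, SE 0.13, adjusted p = 8.53e-07 by edgeR). D-LEC and LN-BEC were not called different (log2 0.20, 95% interval -0.10 to 0.50, adjusted p = 0.262 by edgeR), an interval that leaves room for up to 0.50 on the log2 scale. Mural markers (Acta2, Myh11, Rgs5, Cspg4, Pdgfrb and Des), from cells in which Gjc1 is also used, summed to 183 to 339 in D-LEC, 3140 to 5181 in LN-LEC and 5447 to 6947 in LN-BEC. Between the LN populations both the mural sums and Gjc1 were higher in LN-BEC, whereas D-LEC had the lowest mural sums and the highest Gjc1 mean, and their part in the result was not tested.

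Gja1 and Gjc1 had the most similar pattern of any pair of members. Their root mean square difference over the 10 libraries, on log2(normalized count + 1) centred per gene, was 0.345, and the next pair, Gja4 and Gjc1, was at 0.982. Among 13342 genes with a mean of at least 10 in a population, the nearest in pattern to Gja1 were Amot (0.201), Ahnak (0.201) and Limch1 (0.207). Nearest to Gjc1 were Grb10 (0.182), Cmtm8 (0.187) and Plscr4 (0.196). Amot encodes angiomotin, which acts at endothelial junctions and in Hippo signalling, and its means (LN-LEC, then LN-BEC, then D-LEC) were 252, 479.9 and 965. Grb10, an adaptor of insulin and growth factor receptors, had means of 12549, 31191 and 38107. Likeness of pattern is a description over libraries of 3 populations and carries no test.

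Gja4 encodes Cx37, an endothelial connexin of arteries and of lymphatic valves. It lies on chromosome 4 (126988665 to 126991222, minus strand, mm9) with 2 exons. LN-LEC libraries had 2646, 2171, 2450.3 and 2966 normalized counts, LN-BEC libraries 1779, 1724 and 1626, and D-LEC libraries 2634, 1823 and 2668. The LN-BEC libraries were below all others, and D-LEC replicate 2 lay closer to LN-BEC than to the other D-LEC libraries. The mean was 2558 ± 334 for LN-LEC, 1709 ± 77.4 for LN-BEC and 2375 ± 479 for D-LEC. By edgeR, LN-LEC exceeded LN-BEC 1.51-fold for Gja4 (log2 0.60, SE 0.13, adjusted p = 0.0028). D-LEC were 1.38-fold above LN-BEC (log2 0.47, SE 0.14, adjusted p = 0.0152 by edgeR), a call lost without D-LEC replicate 1 (log2 0.39, adjusted p = 0.0614) or replicate 3 (log2 0.37, adjusted p = 0.0692). The LEC populations were not called different (log2 0.13, 95% interval -0.16 to 0.42, adjusted p = 0.45 by edgeR), and without D-LEC replicate 2 the estimate was -0.03 (adjusted p = 0.862). Nearest to Gja4 in pattern were Tbc1d5 (root mean square difference 0.111), Lasp1 (0.122) and Brpf3 (0.124).

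Gja5 encodes Cx40, a connexin of arterial endothelium and of the atria and conduction tissue of the heart. It lies on chromosome 3 (96836339 to 96857557, plus strand, mm9) with 2 exons. LN-BEC libraries had 1044, 850.1 and 1154 normalized counts. LN-LEC libraries had 6.48, 6.35, 7.92 and 35.8, and D-LEC libraries had 0, 1.002 and 0.826. No library overlapped between populations, and LN-LEC replicate 4 was the one LN-LEC library far above the rest. The mean was 1016 ± 154 for LN-BEC, 14.1 ± 14.5 for LN-LEC and 0.609 ± 0.535 for D-LEC. In raw fragments these are 3275 in all LN-BEC libraries, 74 in LN-LEC and 2 in D-LEC.

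By edgeR, LN-BEC exceeded LN-LEC 59.7-fold for Gja5 (log2 -5.90, SE 0.45, LN-LEC minus LN-BEC, adjusted p = 3.97e-06), and without LN-LEC replicate 4 the log2 difference was -7.15. Against D-LEC the 2 fragments allow only a wide ratio, 1512 for LN-BEC over D-LEC with an exact 95% interval of 418 to 12488, and 27.5 for LN-LEC over D-LEC with 7.36 to 232 (counting error alone). Both differences were called by edgeR (D-LEC minus LN-BEC, adjusted p = 2.26e-06; LN-LEC minus D-LEC, adjusted p = 0.00999). The log2 difference of LN-LEC from D-LEC was 4.44 with all libraries and 3.17 without LN-LEC replicate 4 (adjusted p = 7.32e-04 by edgeR).

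As a percent of the LN-BEC mean, Gja5 in LN-LEC replicates 1 to 4 was 0.638, 0.625, 0.779 and 3.53. The blood markers of the same libraries were at 1.05 to 1.94 percent (Nrp1), 1.03 to 1.74 (Flt1), 1.497 to 3.01 (Vwf) and 1.66 to 3.22 (Notch4). Gja5 in LN-LEC replicates 1 to 3 was below each of the 4 markers, and in replicate 4 it was above each of them. That replicate also had the highest Flt1, Vwf and Notch4 of the LN-LEC libraries. The part of BEC transcripts in the LN-LEC value of Gja5 was not tested.

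**Figure D2:**
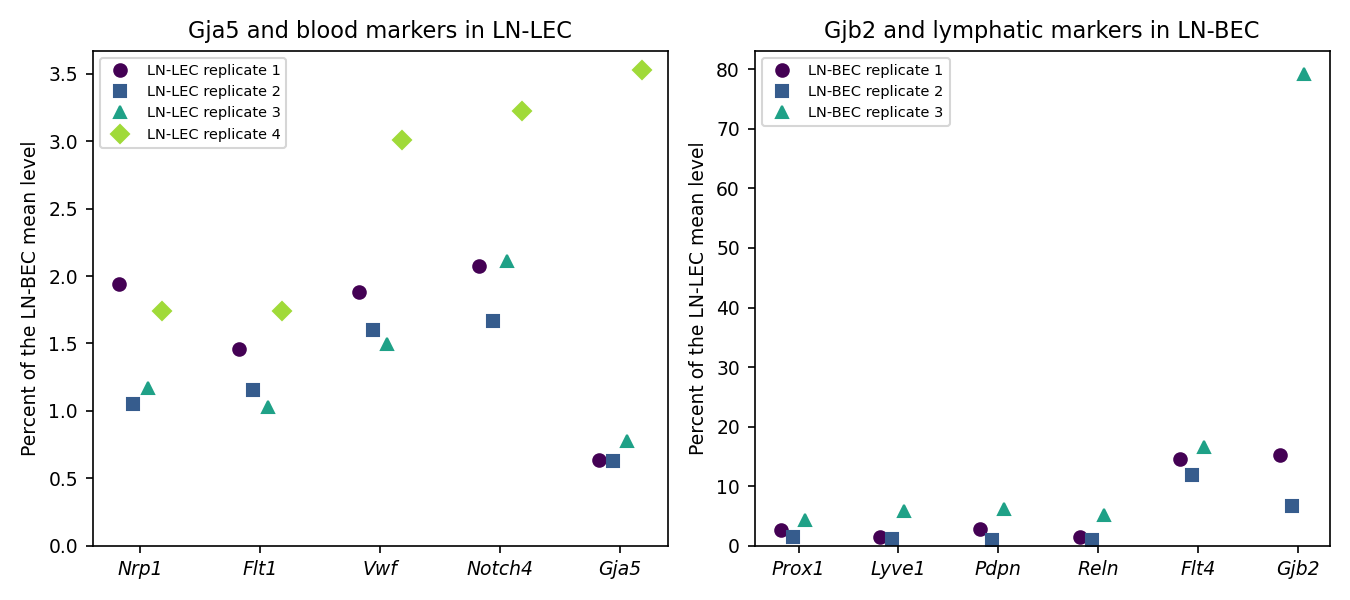
Left, Gja5 and the blood markers in each LN-LEC library as a percent of the LN-BEC mean. Right, Gjb2 and the lymphatic markers in each LN-BEC library as a percent of the LN-LEC mean. Gja5 is at 3.53% in LN-LEC replicate 4 and at most 0.779% in the other LN-LEC libraries, and Gjb2 is at 79.2% in LN-BEC replicate 3 where the markers are at 4.31 to 16.6%.

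The nearest genes to Gja5 in pattern were Esm1 (root mean square difference 0.691), Ndst3 (0.703) and Ly6c1 (0.775). Esm1 encodes endocan, a proteoglycan secreted by endothelium, and its means for LN-BEC, LN-LEC and D-LEC were 3379, 26.0 and 6.24. Ly6c1, a surface antigen carried by many mouse endothelial cells and leukocytes, had 29877, 355 and 47.5 in the same order. Their distances were larger than those of the nearest genes to Gja1 or Gja4.

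Gjb2 encodes Cx26, known from epithelia, the cochlea and the liver. It lies on chromosome 14 (57717439 to 57723539, minus strand, mm9) with 2 exons. LN-LEC libraries had 255, 208, 174 and 301 normalized counts, LN-BEC libraries 35.9, 15.6 and 186, and D-LEC libraries 16.4, 10.02 and 6.61. LN-LEC were above every D-LEC library, but LN-BEC replicate 3 was level with LN-LEC while the other LN-BEC libraries were near D-LEC. The mean was 235 ± 55.4 for LN-LEC, 79.1 ± 93.0 for LN-BEC and 11.01 ± 4.97 for D-LEC. By edgeR, LN-LEC exceeded D-LEC 22.3-fold for Gjb2 (log2 4.48, SE 0.88, adjusted p = 0.00269).

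LN-LEC and LN-BEC were not called different for Gjb2 (log2 1.60, SE 0.70, adjusted p = 0.109 by edgeR), and without LN-BEC replicate 3 the difference was 3.19 (SE 0.39, adjusted p = 1.76e-05). D-LEC were below LN-BEC (log2 -2.87, SE 0.89, adjusted p = 0.0263 by edgeR) although 1 D-LEC library (16.4) exceeded the lowest LN-BEC library (15.6). That difference was -1.29 without LN-BEC replicate 3 (adjusted p = 0.032 by edgeR) and was not called without D-LEC replicate 1, 2 or 3 (adjusted p = 0.0575, 0.0813 and 0.0961). The order of LN-LEC over D-LEC was the part that no single library decided.

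Gjb2 in LN-BEC replicates 1, 2 and 3 stood at 15.3, 6.63 and 79.2% of the LN-LEC mean. In replicate 3 the lymphatic markers stood at 4.31 (Prox1), 5.89 (Lyve1), 6.23 (Pdpn), 5.23 (Reln) and 16.6% (Flt4). Its Gjb2 was therefore above the share of each of the 5 markers. Epithelial markers (Epcam, Krt5, Krt8 and Krt14) summed to 1131 in that library, 140.1 and 215 in the other LN-BEC libraries, 85.1 to 377 in LN-LEC and 42.1 to 120 (119.8) in D-LEC. Epcam alone had 914 normalized counts in LN-BEC replicate 3. Epithelial markers and Gjb2 were thus both highest within LN-BEC in replicate 3, and their part in the result was not tested.

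The nearest genes to Gjb2 in pattern were Ramp1 (root mean square difference 0.573), Chl1 (0.639) and Atp10b (0.651). Ramp1 encodes a co-receptor through which the calcitonin receptor-like receptor binds CGRP, and its means (LN-LEC, then LN-BEC, then D-LEC) were 43.6, 12.8 and 2.39. Among members, Panx1 was the nearest to Gjb2 (1.11).

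Panx1 encodes the widely expressed pannexin, an ATP release channel that caspases open in dying cells. It lies on chromosome 9 (14810229 to 14849922, minus strand, mm9) with 5 exons. LN-LEC libraries had 433, 420.2, 354 and 372 normalized counts, LN-BEC libraries 246, 289.7 and 278, and D-LEC libraries 31.5, 37.1 and 27.3. No library overlapped between any pair of populations, and the D-LEC libraries stood far below both LN populations. The mean was 395 ± 37.8 for LN-LEC, 271 ± 22.7 for LN-BEC and 32.0 ± 4.92 for D-LEC. By edgeR, LN-LEC exceeded D-LEC 12.5-fold for Panx1 (log2 3.65, SE 0.17, adjusted p = 1.02e-09). LN-BEC exceeded D-LEC 8.52-fold (log2 -3.09, SE 0.17, D-LEC minus LN-BEC, adjusted p = 4.71e-09 by edgeR). The LN populations differed by 1.47-fold, with LN-LEC higher (log2 0.55, SE 0.14, adjusted p = 0.00579 by edgeR).

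Other cells of the node also transcribe Panx1. Hematopoietic markers (Ptprc, Ms4a1, Cd3e and Itgam) summed to 9.92 to 53.0 in D-LEC, 59.6 to 85.1 in LN-LEC and 377 to 624 in LN-BEC. The mural sums were also higher in both LN populations, mostly through Rgs5 (above). These sums were larger for LN-BEC, whereas Panx1 was higher in LN-LEC, and their part in the result was not tested. Nearest to Panx1 in pattern were Rgl3 (root mean square difference 0.223), Lifr (0.255) and Rassf2 (0.271). Lifr encodes a receptor of leukemia inhibitory factor, and its means (LN-LEC, then LN-BEC, then D-LEC) were 27308, 17290.1 and 1734.

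**Figure D3:**
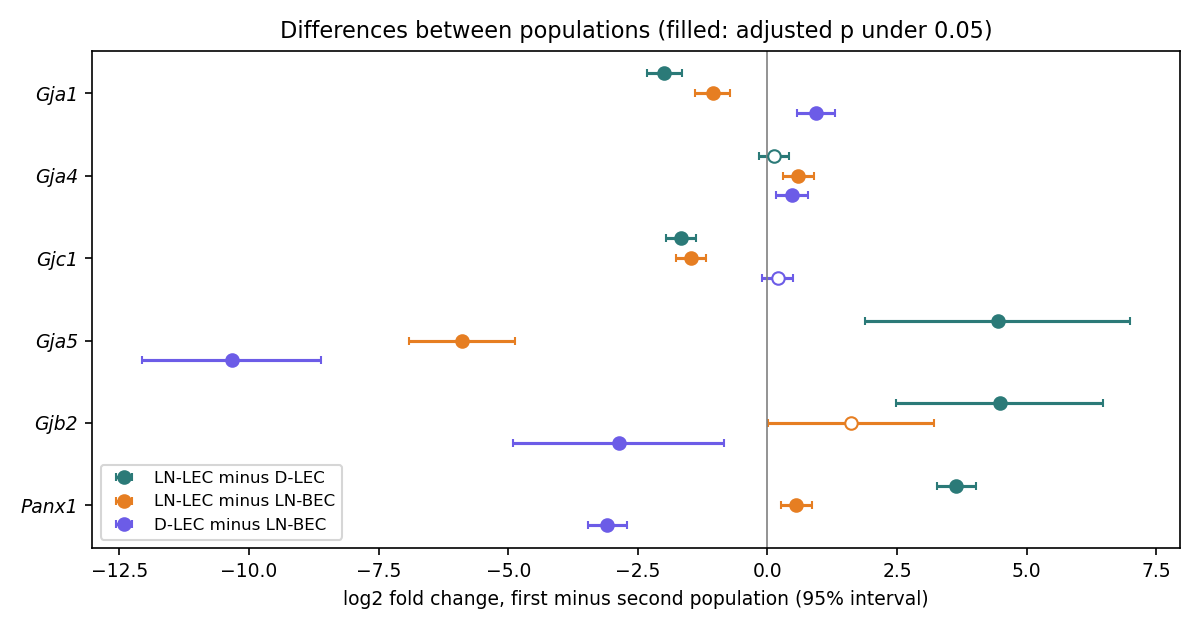
Log2 fold changes of the 6 members in the 3 comparisons with 95% intervals from the edgeR fit, filled where the adjusted p is under 0.05. The open points are Gja4 for LN-LEC minus D-LEC (0.13), Gjb2 for LN-LEC minus LN-BEC (1.60) and Gjc1 for D-LEC minus LN-BEC (0.20), and the widest intervals belong to Gja5 and Gjb2.

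Levels of different genes were compared per kilobase of exon. In the order LN-LEC, then LN-BEC, then D-LEC, mean normalized counts per kb were 3609.6, 7599.7 and 14558 for Gja1 and 1575, 1053 and 1462 for Gja4. Gjc1 was at 141, 396 and 456 per kb. Gjb2 was at 97.6, 32.9 and 4.58, Gja5 at 4.55, 327 and 0.196, and Panx1 at 190.3, 131 and 15.4. Gja1 and Gja4 thus led in every population, and the third member was Panx1 in LN-LEC and Gjc1 in LN-BEC and D-LEC.

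The connexin genes together summed to 5586 ± 511 normalized counts per kb for LN-LEC, 9453 ± 874 for LN-BEC and 17459 ± 3588 for D-LEC. Gja1 made up 64.7 ± 3.19% of this sum for LN-LEC, 80.3 ± 1.10% for LN-BEC and 82.7 ± 5.17% for D-LEC. Gja4 made up 28.2 ± 2.84%, 11.2 ± 0.80% and 8.81 ± 3.19%. The ratio of Gja1 to Gja4 per kb was 2.32 ± 0.38 for LN-LEC, 7.21 ± 0.58 for LN-BEC and 10.6 ± 5.24 for D-LEC, where it ran from 6.73 to 16.6. LN-LEC libraries therefore had a larger Gja4 share than any other library, with Gja4 itself close to its level in D-LEC and Gja1 lower. Gja5 was 3.47 ± 0.53% of the sum in LN-BEC, and Gjb2 was 1.73 ± 0.28% in LN-LEC. Connexins that are not members also contributed to the sum and are shown together in the plot of shares. These shares are descriptions of transcripts and carry no test.

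**Figure D4:**
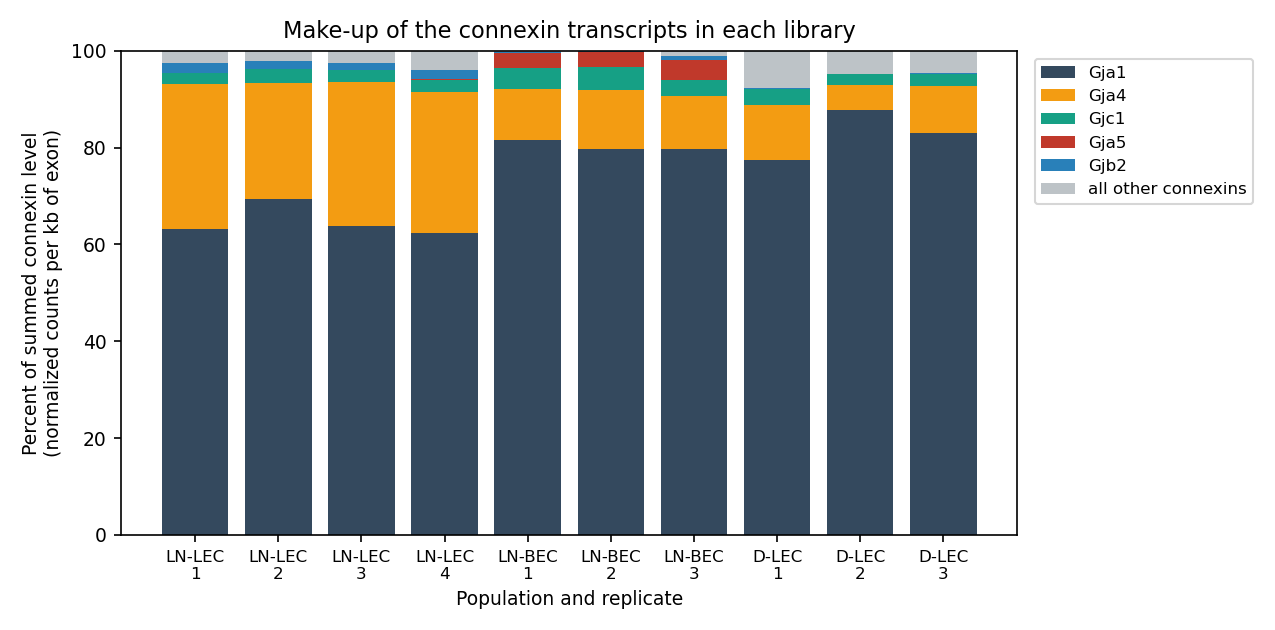
Share of the 5 connexin members and of all other connexins together in the summed connexin level of each library, in percent of normalized counts per kb of exon. Gja4 takes 24.0 to 29.9% in the LN-LEC libraries and at most 12.1% in every LN-BEC or D-LEC library, and Gja1 takes the largest share in all 10 libraries.

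Of 16 further family symbols examined, 6 passed the filter on low levels, and the 10 that did not had at most 2 fragments in a library, 4 of them (Gja3, Gja10, Gjd2 and Gjd4) with none in any. In LN-LEC against D-LEC 3 of the 6 were called (45.8% of all genes), Gjb6 and Gjb1 with LN-LEC higher and Gjb5 with D-LEC higher. In LN-LEC against LN-BEC 1 was called (38.2%), Gjb6, which was higher in LN-LEC. In D-LEC against LN-BEC 2 were called (48.1%), Gjb5 with D-LEC higher and Gjb1 with LN-BEC higher. Their median log2 differences were 0.85, 0.63 and 0.35, beside 0.03, -0.01 and -0.05 over all tested genes. Gjd3, Gjc3 and Gja6 passed in no comparison.

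Gjb6, whose product Cx30 pairs with Cx26 in the cochlea and whose gene, like Gjb2, lies on chromosome 14 (57742140 to 57752414, minus strand, mm9), had 25.9, 24.1, 21.5 and 5.66 normalized counts in LN-LEC and at most 1.65 in any other library. LN-LEC were above D-LEC (ratio 24.9, exact 95% counting interval 6.64 to 210.0, adjusted p = 0.00197 by edgeR) and above LN-BEC (ratio 54.0, interval 9.36 to 2164, adjusted p = 0.00122 by edgeR). Replicate 4, the LN-LEC library highest in Gjb2, was the lowest in Gjb6, and Gjb6 did not follow Gjb2 in LN-BEC replicate 3, where it had 1.05.

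Gjb5, a connexin of skin and trophoblast, had 18.9, 6.01 and 34.7 normalized counts in D-LEC and 0 to 2.51 elsewhere. D-LEC exceeded LN-LEC (log2 -3.71, SE 0.85, LN-LEC minus D-LEC, adjusted p = 0.00271 by edgeR) and LN-BEC (ratio 22.7, exact interval 7.44 to 113, adjusted p = 0.0029 by edgeR). In D-LEC its order over the replicates was that of the mesothelial sums, 1512, 587 and 1817. It was also that of Krt14 from the epithelial list, with 36.6, 9.02 and 40.5. Krt14 was called higher in D-LEC than in either LN population. Epcam of the same list was called lower in D-LEC than in either, and Krt5 lower than in LN-BEC. The part of mesothelial or epithelial cells was not tested. Gjb1, the connexin of liver and of myelinating Schwann cells, had 3.89, 6.35, 4.52 and 33.9 in LN-LEC, 16.6, 6.92 and 89.3 in LN-BEC and 0, 2.004 and 0 in D-LEC. With 2 fragments in all of D-LEC, Gjb1 was above D-LEC in LN-LEC (ratio 24.5, exact 95% counting interval 6.53 to 207, adjusted p = 0.048 by edgeR) and in LN-BEC (ratio 51.7, interval 13.98 to 432, adjusted p = 0.01004 by edgeR). The LN-LEC call was lost without LN-LEC replicate 4 (adjusted p = 0.146 by edgeR) and without that library and LN-BEC replicate 3 together (adjusted p = 0.0669), and the LN-BEC call was kept in each case. The difference between the LN populations was not called (log2 -1.48, LN-LEC minus LN-BEC, adjusted p = 0.254 by edgeR) and depended on both libraries. It was -2.87 without LN-LEC replicate 4 (adjusted p = 0.0315 by edgeR), 0.16 without LN-BEC replicate 3 (adjusted p = 0.92) and -1.22 without both (adjusted p = 0.299). LN-BEC replicate 3 and LN-LEC replicate 4 were the highest libraries of their populations for Gjb1, as for the epithelial sums (1131 and 377). They were also highest for Sox10 and Mbp, markers of Schwann cells, which summed to 487 in LN-BEC replicate 3 (103 in either other LN-BEC library) and to 223 in LN-LEC replicate 4 (44.4 to 67.4 in the other LN-LEC libraries). In D-LEC these summed to 38.1 to 131, with Mbp at 37.1 to 130.5 and Sox10 at only 0.826 to 8.83. The part of either cell type in the result was not tested.

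**Figure D5:**
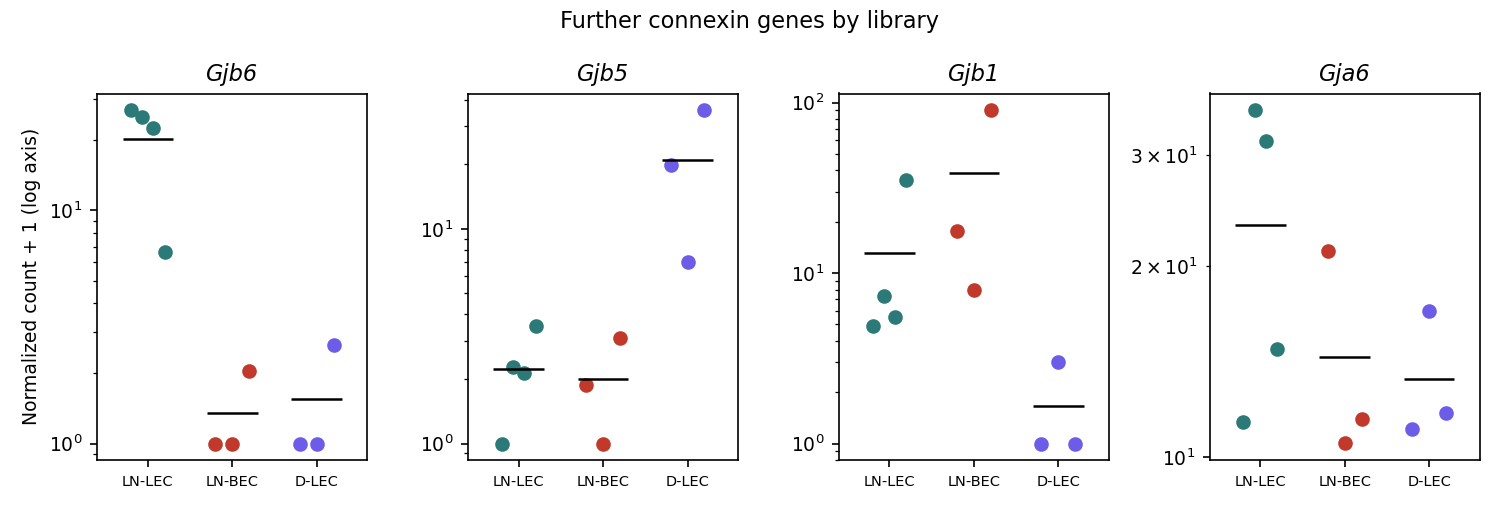
Normalized counts plus 1 on a log axis for Gjb6, Gjb5, Gjb1 and Gja6, with 1 point per library and a bar at the mean. Gjb6 lies at 5.66 to 25.9 in LN-LEC and at or below 1.65 in the other libraries, and Gjb5 lies at 6.01 to 34.7 in D-LEC and at or below 2.51 elsewhere.

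A list of 12 connexin partners and regulators, the scaffolds, kinases and trafficking proteins that bind or modify connexins, was tested in the same fit. In LN-LEC against D-LEC 11 of the 12 were called (45.8% of all tested genes). Of these, 5 were higher in LN-LEC (24.1%) and 6 in D-LEC (21.7%). In LN-LEC against LN-BEC (38.2% of all genes) 5 were higher (19.8%) and 3 lower (18.4%) in LN-LEC. In D-LEC against LN-BEC (48.1% of all genes) 5 were higher (22.4%) and 3 lower (25.6%) in D-LEC. The median differences were -0.13, -0.06 and 0.25 on the log2 scale, beside 0.03, -0.01 and -0.05 over all tested genes. Genes were called in both directions, so that a small median does not mean small differences of single genes. Nov, a matricellular protein (also Ccn3) that binds Cx43, had 93.9 to 151 normalized counts in LN-LEC, 1551 to 1674 in LN-BEC and 3431 to 3902 in D-LEC. Its order was that of Gja1, with log2 -4.90 for LN-LEC minus D-LEC (SE 0.14, adjusted p = 1.44e-11 by edgeR).

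Cav1, encoding the caveolar coat protein caveolin, had 13764 to 19723 in LN-LEC, 48867 to 56386.5 in LN-BEC and 38864 to 49345 in D-LEC, and was lower in LN-LEC than in either (log2 -1.73 against LN-BEC, SE 0.13, adjusted p = 1.41e-07 by edgeR). Src, a kinase that phosphorylates Cx43 and thereby closes its channels, had the opposite order, 191 to 299 in LN-LEC against 17.3 to 53.6 in LN-BEC and 38.8 to 51.7 in D-LEC. Its difference from D-LEC was 2.51 on the log2 scale (SE 0.32, adjusted p = 1.92e-05 by edgeR). Dbn1, encoding drebrin, an actin-binding partner of Cx43, had 686 to 877 in LN-LEC, 167 to 211 in LN-BEC and 1037 to 1380 (1379.9) in D-LEC. The scaffold Tjp1, whose product ZO-1 binds the tail of Cx43, ran from 7400 (7400.1) ± 214 in D-LEC to 9705 ± 631 in LN-BEC. This difference was 1.32-fold and was called (log2 -0.40, SE 0.08, D-LEC minus LN-BEC, adjusted p = 0.00131 by edgeR). LN-LEC were also above D-LEC (log2 0.32, SE 0.08, adjusted p = 0.00381 by edgeR).

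Receptors and enzymes that act on released ATP form the other side of Panx1. Of 6 such genes, 2 were higher (24.1% of all tested genes) and 1 lower (21.7%) in LN-LEC when compared with D-LEC. Compared with LN-BEC, 2 were higher (19.8%) and 4 lower (18.4%) in LN-LEC, and 1 higher (22.4%) and 4 lower (25.6%) in D-LEC. Their medians were 0.54, -1.996 and -1.96 on the log2 scale, beside 0.03, -0.01 and -0.05 over all tested genes. Entpd1 (CD39), which hydrolyses extracellular ATP, had 6188 to 7398 normalized counts in LN-BEC, 57.1 to 104 in LN-LEC and 18.9 to 25.0 in D-LEC. The ATP receptor P2ry2 had 167 to 241 in LN-BEC, 6.48 to 20.7 in LN-LEC and 8.26 to 10.1 in D-LEC. P2ry1, a receptor for ADP, was highest in LN-LEC with 231 to 299, against 57.9 to 110.3 in LN-BEC and 68.1 to 84.5 in D-LEC. Panx1 was likewise highest in LN-LEC. The ATP receptor P2rx4 also had its highest mean there, 789, against 642 in D-LEC and 478 in LN-BEC. With all libraries P2rx4 was not called between the LEC populations (adjusted p = 0.103 by edgeR). Entpd1, P2ry2, P2rx7 and Nt5e were highest in LN-BEC.

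Because Gja4 and Gja5 are known from arteries, 9 arterial endothelial genes were listed. All 9 were called in LN-LEC against LN-BEC (38.2% of all tested genes), 4 higher (19.8%) and 5 lower (18.4%) in LN-LEC. In D-LEC against LN-BEC 5 were higher (22.4%) and 3 lower (25.6%) in D-LEC. In LN-LEC against D-LEC 2 were higher (24.1%) and 4 lower (21.7%) in LN-LEC. The medians were -0.98, 0.38 and -0.23 on the log2 scale, beside -0.01, -0.05 and 0.03 over all tested genes. Sox17, a transcription factor of arterial fate, ran with Gja5: 3582 to 3954 normalized counts in LN-BEC, 24.9 to 58.5 in LN-LEC and 15.1 to 21.5 in D-LEC. LN-LEC replicate 4 was again the highest LN-LEC library, with 58.5. Hey1, a Notch target, did not follow Gja5, with 6023 to 6867 in D-LEC, 4935 to 5147 in LN-BEC and 246 to 323 in LN-LEC. By means, Sox17 therefore had the order of Gja5, and Hey1 and Dll4 had the order of Gja1. Hey2 and Sema3g peaked in LN-BEC as Gja5 did, but their means were not lowest in D-LEC. The other 4 had neither order, because for them the LN-BEC mean lay below that of LN-LEC, opposite to both members. Their LN-LEC and LN-BEC means were 20198 and 15178 (Efnb2), 1803 and 421 (Bmx), 2055 and 917 (Unc5b), and 7063 and 4237 (Jag1).

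Because Gja1 and Gja4 are known from lymphatic valves, 6 valve genes were listed. All 6 were called for LN-LEC against LN-BEC (38.2% of all tested genes), 5 of them higher in LN-LEC (19.8%). Against LN-BEC, D-LEC had 4 higher (22.4%) and 1 lower (25.6%). Against D-LEC, LN-LEC had 3 higher (24.1%) and 1 lower (21.7%). The medians were 2.53, 1.62 and 0.26 on the log2 scale, beside -0.01, -0.05 and 0.03 over all tested genes. Foxc2, a transcription factor needed for valve formation, had 7335 to 10238 normalized counts in LN-LEC and 13024 to 17463 in D-LEC, and its difference was not called (log2 -0.74, SE 0.32, adjusted p = 0.0903 by edgeR). Cldn11, a tight junction claudin of valves, had 5057 to 6132 in LN-LEC, 347 to 583 in LN-BEC and 521 to 579 in D-LEC. Both LEC populations were above LN-BEC for Foxc2 as for Gja4. With all libraries Cldn11 was not called between D-LEC and LN-BEC (log2 0.35, SE 0.16, adjusted p = 0.0926 by edgeR). It was called, with D-LEC higher, without LN-BEC replicate 3 and without that library and LN-LEC replicate 4 together.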

How the data were processed

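RNA from sorted LN-LEC, LN-BEC and D-LEC was amplified (Ovation kit) and sequenced from both ends. The authors trimmed the reads, mapped them to the mm9 build by STAR and, with featureCounts 1.4.4, counted fragments per symbol over its exons, ignoring strand and leaving out fragments that mapped to several places. The deposited values are these raw counts, beside the summed exon length used for levels per kb. Unnamed (predicted, RIKEN, LOC or clone) symbols (3827) were left out, and the 15319 others whose normalized counts averaged 1 or more in some population entered the edgeR 4.0.16 fit under R 4.3.3 (TMM, 1 mean per population, all 10 libraries, robust quasi-likelihood F test). Benjamini-Hochberg adjustment was made per comparison, and genes were called under 0.05. The SE was derived from the F statistic and the log2 fold change. Levels used size factors of DESeq2 1.42.0. Where a population had 1 to 3 fragments in all, the ratio of totals is given with an exact 95% interval that covers counting error only. The code was tested on simulated data.

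Genes named are the members, the genes of 5 lists and of the cell type markers, and the 3 genes nearest in pattern to each member. Members and lists were chosen with earlier results of these data known, and so support no claim of independence. Replicates are numbered in accession order. No pair of the 12 within-population pairs of libraries was identical (chi-square per gene 10.02 to 369.5). Alternatives were other scaling factors, the DESeq2 Wald test, other low-count filters, all symbols, only the populations compared, no robust option, each library left out in turn, and LN-BEC replicate 3 and LN-LEC replicate 4 left out together. Promoters came from a RefSeq table of GRCm38.p6, which held 5 of the 6 members and had no entry for Gjc1. Each of the 5 was located in mm9 by exact match. A few listed genes are not reported here. The connexin sum covers all 20 connexin symbols of the table.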

Additional observations from a re-analysis of the deposited data

Results flagged for a closer look

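Only LN-LEC has the 4 libraries needed to ask whether a library lies far from its group, and 12 family genes were examined. In 4 of them LN-LEC replicate 4 lay far above the other LN-LEC libraries: Gja5 (35.8 normalized counts), Gjb1 (33.9), Gjd3 (2.51) and Gjc3 (1.89). Chance gives such a gap in about 1 of 20 groups, a rate that does not apply to counts of a few fragments. The 12 genes were read from the same 4 libraries, so their flags are not independent. Gjd3 and Gjc3 rest on a handful of fragments. The same library was the deepest and had the highest epithelial sum of the LN-LEC libraries (377), and the part of either in these values was not tested.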

How the results depend on the processing

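Over 19 settings, 334 of 342 alternatives kept the direction and the call of the members, and the number of called genes stayed within 1.5 times in 57 of 57. Outside the settings that left out 1 library, the exception was Gjb2 for LN-LEC minus LN-BEC, which became called (3.06) without LN-BEC replicate 3 and LN-LEC replicate 4 together, while its difference for D-LEC minus LN-BEC was -1.26. With 1 library left out in turn, the log2 difference ran from -0.029 to 0.23 for Gja4 (LN-LEC minus D-LEC, reversed without D-LEC replicate 2), from 0.37 to 0.62 for Gja4 (D-LEC minus LN-BEC), from 1.12 to 3.19 for Gjb2 (LN-LEC minus LN-BEC) and from -3.35 to -1.29 for Gjb2 (D-LEC minus LN-BEC). It ran from -7.15 to -5.68 for Gja5 (LN-LEC minus LN-BEC) and from 3.17 to 4.79 (LN-LEC minus D-LEC). Without division by length, Gja1 made up 75.9% (LN-LEC), 85.3% (LN-BEC) and 87.9% (D-LEC) of the connexin sum, Gja4 17.4, 6.21 and 4.93%, and Gjc1 2.76% in LN-LEC, because Gja4 is shorter than Gja1. Without LN-BEC replicate 3, LN-LEC replicate 4 or both, the calls of the 5 gene lists, cell type markers aside, moved by at most 1 gene in a direction. No paired analysis was possible because the labels give no replicate numbers. Values near 3 fragments, as for Gja5 in D-LEC, are limited by depth.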
